A study of Mus musculus with 4 samples.

Results

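The MHC class II genes and their activator Ciita were examined in chromatin accessibility data of mouse microglia, the resident macrophages of the brain. The members were 8 genes: Ciita, Cd74, H2-Aa, H2-Ab1, H2-Eb1, H2-DMa, H2-DMb1 and H2-DMb2. Every deposited peak that overlapped one of their gene bodies or the 10 kb on either side was taken (GRCm38, GENCODE M21), and windows that overlapped were joined and counted once. This gave 105 merged regions out of 388087 in the genome: 30 around Ciita, 14 around Cd74, 30 in the H2-Ab1, H2-Aa and H2-Eb1 block and 31 in the H2-DM block. Accessibility was measured by ATAC-seq, in which the Tn5 transposase cuts open chromatin, and MACS2 peaks were called in each library. Per the labels, untreated microglia of C57BL/6 mice aged 3 months were isolated without enzymes and sorted by flow cytometry. The groups were WT (2 libraries) and IRF8KO (2 libraries), the latter from mice that lack the transcription factor IRF8. The IRF8KO allele is not named in the labels. Nothing in the labels says that the 2 libraries of a genotype came from separate animals, so p-values measure only the spread between these libraries.

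MHC class II molecules present peptides from endocytosed proteins to CD4+ T cells. CIITA is the coactivator on which their transcription depends. It binds no DNA itself and is recruited by RFX, CREB and NF-Y proteins that sit on the conserved X and Y boxes upstream of each class II gene. Ciita has several alternative promoters, used in different cell types and after interferon gamma, and IRF8 binds DNA with PU.1 at composite ETS-IRF elements. In the unperturbed brain, microglia carry little surface MHC class II, and border-associated macrophages and dendritic cells carry more.

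Values are per-million pileups, the highest pileup of a region divided by its library's tags and multiplied by 1000000. The libraries held 46948938, 48896408, 78793572 and 66224648 tags in WT replicates 1 and 2 and IRF8KO replicates 1 and 2. IRF8KO replicate 1 stood apart: its median log2 value over the 58732 regions with a peak in all 4 libraries was −1.21, against −0.38, −0.70 and −0.53 in WT replicate 1, WT replicate 2 and IRF8KO replicate 2. The median log2 ratio of IRF8KO over WT over these regions was −0.31 on the per-million scale and 0.02 after the libraries were scaled to 1 median, so both scalings are given wherever a direction or call depends on it. The lowest pileups listed were 0.128, 0.123, 0.102 and 0.106, and where no peak was listed the level below that is unknown. The files hold called peaks, so in these bulk samples fewer cells with open chromatin and less opening per cell cannot be told apart. With 2 libraries against 2, the smallest p an exact permutation test can give is 0.33.

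The labelled cell type was checked against 8 microglia markers, of which 8, 8, 7 and 8 had a promoter peak in WT replicates 1 and 2 and IRF8KO replicates 1 and 2. Their summed per-million promoter pileup was 20.4 and 15.4 in WT and 7.86 and 13.7 in IRF8KO, and Sall1 gave 2.11 and 2.05 in WT, no peak in IRF8KO replicate 1 and 0.151 in IRF8KO replicate 2. The 6 border macrophage markers summed to 1.09 and 0.757 in WT and 2.42 and 4.03 in IRF8KO. Mrc1, Pf4 and Ms4a7 were the 3 of these 6 with both IRF8KO libraries above both WT libraries, in both scalings. Of protein-coding promoters with a peak in all 4 libraries, a class that holds Mrc1 and Pf4 but not Ms4a7, 3.79% lay above on the per-million scale and 22.3% after median scaling. Lyve1 went the other way, with 0.170 and 0.143 in WT, no peak in IRF8KO replicate 1 and 0.151 in IRF8KO replicate 2, overlapping on the per-million scale and below WT after median scaling. Cd163 had no peak in any library. The 6 dendritic cell markers summed to 5.77 and 3.70 in WT and 1.97 and 2.63 in IRF8KO, with Xcr1 and Clec9a at no peak in any library. Itgax had 2.49 and 1.64 in WT and 0.393 and 0.408 in IRF8KO, apart in both scalings. Cd209a had 0.277 and 0.164 in WT and no peak in IRF8KO. Flt3 overlapped in both scalings, and Zbtb46 overlapped on the per-million scale and lay above WT after median scaling. The 6 B cell markers summed to 1.19 and 0.920 in WT and 0.533 and 0.453 in IRF8KO, with Cd79a at no peak. The 4 monocyte markers summed to 0 and 0.143 in WT and 0.203 and 0.438 in IRF8KO, with Ccr2 and Plac8 at no peak, and the 5 neutrophil markers summed to 0.405 and 0.123 in WT and 0.178 and 0.257 in IRF8KO, with S100a9, Ngp and Ltf at no peak. Marker promoters were searched only within 1 kb of 1 annotated 5′ end, so peaks at other starts are not counted. The part of these markers' cell types in the MHC class II values was not tested.

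**Figure D1:**
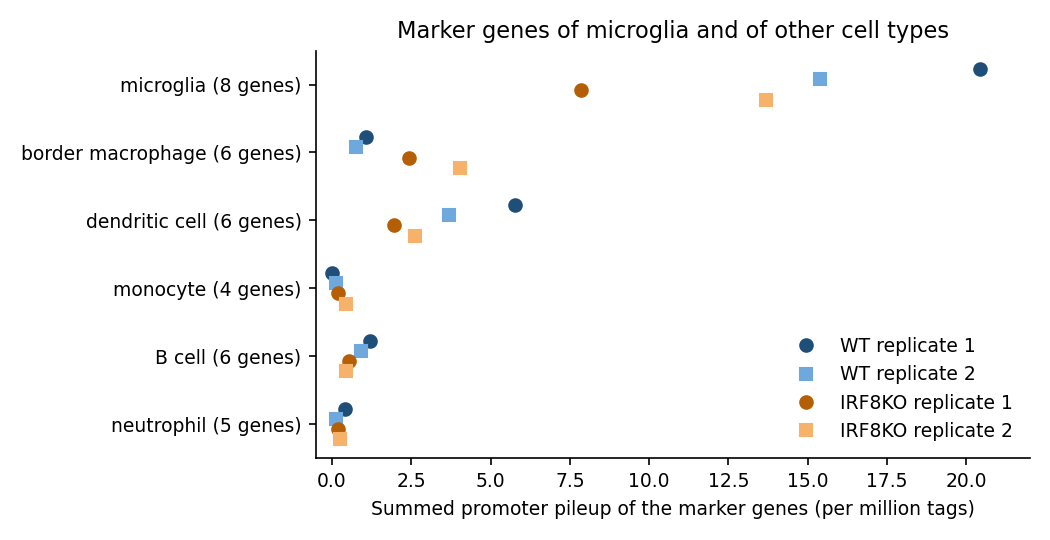
Summed per-million promoter pileup (horizontal axis) of each marker list (rows), with 1 point per library. The border macrophage points of IRF8KO (2.42 and 4.03) lie above those of WT (1.09 and 0.757), and the microglia points of IRF8KO (7.86 and 13.7) lie below those of WT (20.4 and 15.4).

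The sequences of 9 stretches on which the results turn are given first, from the GRCm38 genome and 5′ to 3′ along the strand named. The first 5 show where peaks were missing or lower in IRF8KO. The others are class II starts with a peak in all 4 libraries, and all of them but H2-Aa also lay lower in IRF8KO in both scalings. Capitals mark matches to motifs searched on both strands: the ETS-IRF element (GGAA, any 2 bases, then GAAA), the X box, NF-Y (CCAAT, or ATTGG on the other strand) and the CRE (TGACGTCA). The stretch before the first Ciita start held no such match and has no capitals.
Ciita first start, upstream (chr16:10479819-10480058, plus strand): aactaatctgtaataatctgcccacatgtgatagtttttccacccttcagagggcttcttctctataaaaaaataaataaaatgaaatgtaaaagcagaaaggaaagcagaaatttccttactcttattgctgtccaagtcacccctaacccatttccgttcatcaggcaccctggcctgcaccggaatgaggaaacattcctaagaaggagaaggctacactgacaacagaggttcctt
Ciita second start, part of the WT-only region (chr16:10487964-10488177, plus strand): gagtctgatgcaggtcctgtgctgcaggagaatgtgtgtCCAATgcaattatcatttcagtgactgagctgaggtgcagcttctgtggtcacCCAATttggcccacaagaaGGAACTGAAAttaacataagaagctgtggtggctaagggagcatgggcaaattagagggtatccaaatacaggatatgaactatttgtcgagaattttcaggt
Ciita intron, WT-only region (chr16:10499282-10499463, plus strand): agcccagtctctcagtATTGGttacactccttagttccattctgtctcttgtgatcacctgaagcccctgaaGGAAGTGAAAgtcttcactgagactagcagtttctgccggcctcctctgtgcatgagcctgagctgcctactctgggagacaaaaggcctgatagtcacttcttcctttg
H2-Aa gene body, WT-only region (chr17:34286612-34286747, minus strand): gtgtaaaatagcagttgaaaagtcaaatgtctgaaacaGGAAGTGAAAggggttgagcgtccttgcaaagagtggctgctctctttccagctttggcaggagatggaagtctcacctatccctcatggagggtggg
H2-Ab1 5′ end, window around the summit (chr17:34257661-34257861, plus strand): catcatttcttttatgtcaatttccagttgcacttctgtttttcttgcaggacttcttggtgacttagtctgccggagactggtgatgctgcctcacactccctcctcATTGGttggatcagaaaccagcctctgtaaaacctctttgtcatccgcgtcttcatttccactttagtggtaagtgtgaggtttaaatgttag
H2-DMb2 start, upstream (chr17:34143107-34143306, plus strand): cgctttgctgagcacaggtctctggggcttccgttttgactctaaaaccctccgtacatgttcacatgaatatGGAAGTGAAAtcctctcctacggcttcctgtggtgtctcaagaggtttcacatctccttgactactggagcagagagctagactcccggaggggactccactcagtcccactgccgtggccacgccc
H2-Ab1 coding start, upstream (chr17:34263059-34263208, plus strand): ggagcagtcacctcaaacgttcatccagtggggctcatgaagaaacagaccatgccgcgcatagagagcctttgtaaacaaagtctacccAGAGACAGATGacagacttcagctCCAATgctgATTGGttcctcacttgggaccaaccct
H2-Eb1 coding start, upstream (chr17:34305717-34305866, plus strand): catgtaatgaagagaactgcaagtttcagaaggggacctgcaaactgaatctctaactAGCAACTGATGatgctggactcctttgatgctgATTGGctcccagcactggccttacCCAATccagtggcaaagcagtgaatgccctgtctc
H2-Aa coding start, upstream (chr17:34287824-34287973, minus strand): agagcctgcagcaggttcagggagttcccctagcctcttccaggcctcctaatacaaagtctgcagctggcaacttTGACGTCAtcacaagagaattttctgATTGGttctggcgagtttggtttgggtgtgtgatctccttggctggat

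Ciita was open at its first start in WT, and little or no peak was listed there in IRF8KO. The peak at that start (chr16:10479710-10480212), whose summit lies 26 bp upstream of the annotated 5′ end, reached 1.81 and 1.41 in WT replicates 1 and 2. No peak was listed there in IRF8KO replicate 1, and IRF8KO replicate 2 had one of 0.151. The lowest peak listed within 5 kb in IRF8KO replicate 1 was 0.355, so a lower one may have gone unlisted there, and this is below both WT values. The WT mean was 1.61 ± 0.282 (SD, n = 2), and no IRF8KO mean is given because 1 level is unknown. The groups did not overlap in either scaling (exact permutation test with the unlisted peak at 0, two-sided, p = 0.33, the smallest possible). In deposited terms the WT summits held 85 and 69 extended cut sites, with −log10 q of 81.4 and 61.6, and the single IRF8KO peak held 10, with −log10 q of 1.21. This start is the strongest region of the Ciita window in WT.

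The downstream Ciita starts were weakly open in WT. Near the second coding start (position 10488279 of chromosome 16), a region at chr16:10487964-10488252 had 0.362 and 0.266 in WT and no peak in either IRF8KO library. The second stretch printed above covers its first 214 of 289 bases, and an ETS-IRF match, GGAACTGAAA, lies within 100 bp of its summit. The lowest peaks listed within 5 kb were 0.140 and 0.121 in IRF8KO replicates 1 and 2, below the WT values. The third start (position 10489781) had 0.170 and 0.164 in WT, 0.140 in IRF8KO replicate 1 and no peak in IRF8KO replicate 2, at a region with a match to the ISRE letters (GAAA, any 2 bases, then GAAA), an element that IRF proteins bind. Between these 2 starts, chr16:10489213-10489380 was open in WT at 0.213 and 0.307 and absent in both IRF8KO libraries, with a match to the AP-1 letters TGACTCA.

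Inside the gene, chr16:10499282-10499463, 9.62 kb beyond the nearest annotated coding start, was present in both WT libraries at 0.447 and 0.184 and in neither IRF8KO library. It is the third stretch printed and holds the ETS-IRF match GGAAGTGAAA. The fourth WT-only region of the window, chr16:10486817-10487084, had 0.234 and 0.164 in WT. The WT replicate 2 values of these last 2 regions, at −log10 q of 1.63 and 1.47, fall short of a −log10 q of 2.

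Other Ciita regions stayed open in IRF8KO. The region 3.97 kb upstream of the first start (chr16:10475921-10476257) had 0.554 and 0.491 in WT and 0.381 and 0.710 in IRF8KO, so the groups overlapped, although after median scaling both IRF8KO libraries were above both WT libraries. The intronic region 6.43 kb after a coding start had 0.554 and 0.245 in WT and 0.241 and 0.438 in IRF8KO, again with overlap. The region at chr16:10521267-10521724, which lies in introns of both Ciita and Dexi, fell short of the limma threshold, with 1.28 and 0.859 in WT and 0.495 and 0.725 in IRF8KO (log2 −0.81 ± 0.50 (SE), adjusted p = 0.384; groups apart in both scalings). Of the 4 Ciita regions with a peak in all 4 libraries, limma called 0 lower and 0 higher in either scaling, where over the genome it called 6.82% lower and 2.8% higher, and 11.7% and 13.5% after median scaling. At an unadjusted p under 0.05 it had 0 in both directions (genome 14.6% and 5.63%), and 0 lower and 1 higher after median scaling (genome 15.8% and 18.1%). The first start had no peak in IRF8KO replicate 1 and could not be fitted with all 4 libraries. Without that library limma gave it a log2 difference of −3.40 ± 0.45 (SE; adjusted p = 7.63e-12), and −3.36 ± 0.33 (SE; adjusted p = 5.18e-22) after median scaling, with the 1 IRF8KO library assumed to vary like the WT libraries.

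Both regions of the window that were present in IRF8KO only were weak or lay in Dexi, a neighbouring gene. They had 0.102 and 0.151 in IRF8KO at chr16:10516039-10516361, and 0.241 and 0.347 at chr16:10536157-10536359. Summed over the Ciita window, the peaks came to 6.58 and 5.26 in WT and 2.40 and 3.97 in IRF8KO, over 14, 17, 12 and 14 peaks covering 3205, 2713, 2178 and 2816 bp. The mean pileup per peak was 0.470 and 0.309 in WT and 0.200 and 0.284 in IRF8KO. On average the IRF8KO sum was 0.538 of the WT mean, and 0.658 after median scaling (exact permutation test, two-sided, p = 0.33).

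**Figure D2:**
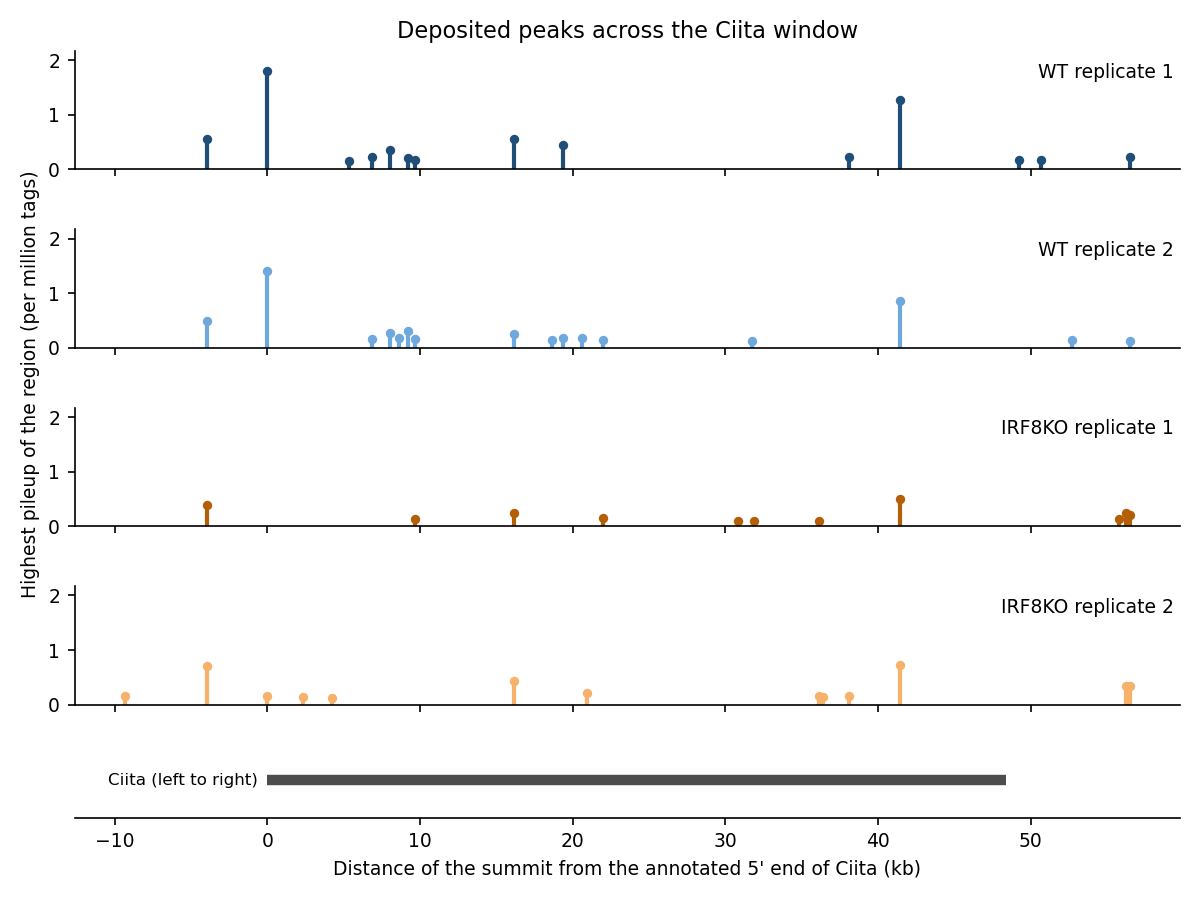
Highest per-million pileup (vertical axes, same scale) of each merged region in the Ciita window against the distance of its summit from the annotated 5′ end in kb, with 1 panel per library and the gene as a bar below. The tallest WT line, at the first start (1.81 and 1.41), is absent from IRF8KO replicate 1 and 0.151 in IRF8KO replicate 2.

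Cd74 encodes the invariant chain, which occupies the class II groove until peptides are loaded. Its promoter region (chr18:60803567-60803867) had 2.45 and 2.39 in WT and 0.393 and 0.710 in IRF8KO. Every WT value was more than every IRF8KO value in both scalings, and the IRF8KO mean was 0.228 of the WT mean, or 0.273 after median scaling. The limma fit gave a log2 difference of −2.20 ± 0.47 (SE) and an adjusted p of 0.000137, and after median scaling −1.87 ± 0.23 (SE) with an adjusted p of 5.05e-09. Without IRF8KO replicate 1 the log2 difference was −1.77 (limma, adjusted p = 0.000175). The call was lost on the per-million scale without WT replicate 1 (log2 −2.18, limma adjusted p = 0.361) or WT replicate 2 (log2 −2.21, adjusted p = 0.273), and was kept in each of these fits after median scaling. ETS-IRF and NF-Y letters both lie within 100 bp of its summit.

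The difference at Cd74 was uneven along the locus. A region 6.71 kb upstream (chr18:60797074-60797319) had 0.575 and 0.675 in WT and no peak in either IRF8KO library, where peaks as low as 0.393 and 0.272 were listed within 5 kb. It holds ETS-IRF and AP-1 letters. In the first kilobases of the gene body, the region 2.1 kb after the start had 2.71 and 1.80 in WT and 1.17 and 2.04 in IRF8KO, with overlap, and the region at 3.66 kb had 2.32 and 1.98 in WT and 1.05 and 1.77 in IRF8KO, which did not overlap and which limma did not call (adjusted p = 0.434). The one Cd74 region present in IRF8KO only (chr18:60806629-60806812, 0.432 and 0.680) lies among tall peaks: the lowest peaks listed within 5 kb were 0.703 and 0.675 in the WT libraries, so a WT peak of that size may have gone unlisted there. The window's sum was 12.4 and 9.51 in WT, over 11 and 8 peaks covering 2118 and 1770 bp, and 4.94 and 8.55 in IRF8KO, over 9 and 10 peaks covering 1947 and 2180 bp. That is a ratio of 0.616, or 0.750 after median scaling.

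H2-Ab1 and H2-Aa encode the beta and alpha chains of the H2-A molecule, and H2-Eb1 encodes the beta chain of H2-E. H2-Ab1 was lower in IRF8KO at its annotated 5′ end, H2-Eb1 lay lower at its promoter in both scalings but was called in 1 of the 2, and at the H2-Aa promoter the groups overlapped on the per-million scale. The coding start of H2-Ab1 was not called, and the difference between the 3 genes was not tested.

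The annotated 5′ end of H2-Ab1 belongs to a non-coding transcript and lies upstream of the coding start. Its region (chr17:34257594-34258035, with the part around its summit printed as the fifth stretch) had 3.30 and 2.84 in WT, the highest of the block, and 0.863 and 1.45 in IRF8KO. The groups lay apart, at 0.376 of the WT mean or 0.457 after median scaling. By limma the log2 difference was −1.45 ± 0.43 (SE; adjusted p = 0.0127), −1.13 ± 0.20 (SE; adjusted p = 1.26e-05) after median scaling, and −1.08 (adjusted p = 0.0348) without IRF8KO replicate 1. On the per-million scale the call was lost without WT replicate 1 (limma log2 −1.35, adjusted p = 0.880) or WT replicate 2 (log2 −1.56, adjusted p = 0.568), and after median scaling it was kept in both. At the coding start of H2-Ab1 (chr17:34263036-34263464) the values were 1.47 and 1.19 in WT and 0.533 and 1.16 in IRF8KO. IRF8KO replicate 2 almost met WT replicate 2 there, and limma did not call the region (log2 −0.75, adjusted p = 0.403).

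H2-Eb1 had 1.47 and 1.31 at its promoter (chr17:34305668-34305913) in WT, against 0.546 and 0.815 in IRF8KO. Both groups lay apart and the ratio was 0.490, or 0.602 after median scaling. The limma call depended on the scaling: the log2 difference was −1.06 (adjusted p = 0.171) on the per-million scale and −0.73 (adjusted p = 0.0209) after median scaling. The median-scaled call was lost without WT replicate 1 (limma adjusted p = 0.0716) or WT replicate 2 (0.123), and the per-million difference was called without IRF8KO replicate 2 (0.00834).

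At the H2-Aa promoter (chr17:34287773-34288072) WT had 1.32 and 0.941 and IRF8KO had 0.863 and 1.43. The groups overlapped, with means of 1.13 ± 0.269 and 1.15 ± 0.404 (SD, n = 2 each; exact permutation test, two-sided, p = 1), while after median scaling both IRF8KO libraries lay above both WT libraries. The sign of the difference followed single libraries: it was −0.172 without WT replicate 2 and −0.268 without IRF8KO replicate 2. Within the H2-Aa gene body, chr17:34286612-34286747, the fourth stretch printed, had 0.298 and 0.164 in WT and no peak in IRF8KO. It holds the same 10 letters, GGAAGTGAAA, as the Ciita intron region. The lowest peaks listed within 5 kb in IRF8KO were 0.508 and 1.43, above these WT values, so the nearby lists do not show that so low a peak would have been called.

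Upstream of H2-Aa, the region 3.97 kb before its start (chr17:34291663-34291928) had 1.83 and 1.64 in WT and 0.901 and 1.24 in IRF8KO, apart in both scalings but not called (limma adjusted p = 0.401). The next strong region, 8.39 kb before the start (chr17:34295984-34296521), went the other way. It had 1.30 and 0.818 in WT and 1.12 and 1.59 in IRF8KO, was not called on the per-million scale (limma log2 0.37, adjusted p = 0.722) and was called higher after median scaling (log2 0.69, adjusted p = 0.0210), a call lost without WT replicate 2 (adjusted p = 0.379) or IRF8KO replicate 1 (0.0560). Between the 2, chr17:34293651-34293780 was listed in WT only, at 0.383 and 0.245, with PU.1, AP-1 and E-box letters; the lowest IRF8KO peaks listed within 5 kb were 0.330 and 0.649. The last WT-only region of the block, chr17:34324986-34325116, had 0.362 and 0.164 and lies close to the start of H2-Eb2, where peaks as low as 0.216 and 0.121 were listed in IRF8KO replicates 1 and 2.

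Summed over the block, the peaks came to 18.4 and 14.1 in WT and 8.45 and 13.3 in IRF8KO, over 22, 21, 19 and 18 peaks covering 4902, 4245, 4323 and 4581 bp. The ratio was 0.668, or 0.824 after median scaling. Taken by gene window, the H2-Ab1 sums did not overlap (ratio 0.597), while those of H2-Aa (0.799) and H2-Eb1 (0.776) did.

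**Figure D3:**
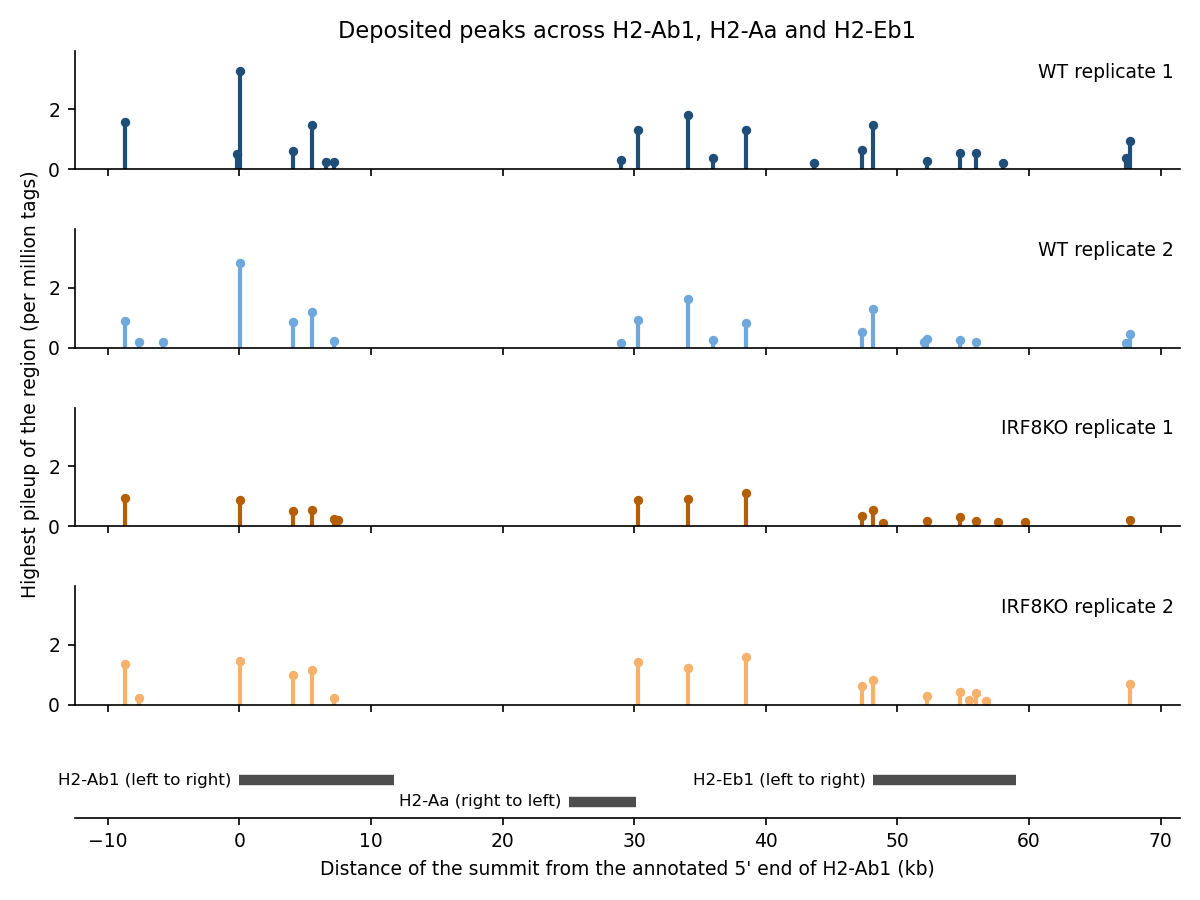
Highest per-million pileup (vertical axes, same scale) of each merged region across H2-Ab1, H2-Aa and H2-Eb1 against the distance of its summit from the annotated 5′ end of H2-Ab1 in kb, with 1 panel per library and the genes as bars below. The line at the H2-Ab1 5′ end stands at 3.30 and 2.84 in WT and at 0.863 and 1.45 in IRF8KO, while the line at the H2-Aa start does not order by genotype.

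H2-DMa pairs with H2-DMb1 or H2-DMb2 to form the H2-DM molecule, which removes the invariant chain remnant and helps load peptides. Their window held the highest pileups among the members. The start of H2-DMb2 (chr17:34143015-34143400) had 5.30 and 3.84 in WT, against 2.25 and 3.10 in IRF8KO. These groups lay apart in both scalings (ratio 0.584, and 0.733 after median scaling), but limma did not call it (log2 −0.78, adjusted p = 0.257; −0.45, adjusted p = 0.0536 after median scaling). An ETS-IRF match lies 127 bases before that start, in the sixth stretch printed. No peak was listed within 1 kb of the other coding start of H2-DMb2 (position 34145236) in any of the 4 libraries.

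H2-DMa has 2 coding starts with peaks. The second (chr17:34135274-34135876) had 4.52 and 3.91 in WT and 2.78 and 4.0 in IRF8KO, which overlap, with a ratio of 0.805 that became 0.996 after median scaling. The first (chr17:34122522-34122913) faces the start of Brd2, a chromatin reader transcribed the other way, and had 1.98 and 1.47 in WT and 1.32 and 1.36 in IRF8KO, a ratio of 0.776, or 1.01 after median scaling. At the annotated 5′ end of H2-DMa, which lies inside Brd2, the values were 4.41 and 3.15 in WT and 2.18 and 3.13 in IRF8KO. Peaks in this stretch cannot be assigned to H2-DMa rather than Brd2. That includes the WT-only region chr17:34120360-34120617, at 1.13 and 0.798 in WT, where peaks of 0.432 and 0.453 were still listed nearby in IRF8KO.

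H2-DMb1 had 1.02 and 1.12 at its start (chr17:34153000-34153255) in WT and 0.647 and 0.936 in IRF8KO, apart on the per-million scale and overlapping after median scaling (ratio 0.737, then 0.899). Inside the gene, 4.07 kb after the start, a weak intronic region (chr17:34157021-34157306) had 0.341 and 0.307 in WT and 0.102 and 0.151 in IRF8KO. Limma called it lower (log2 −1.38, adjusted p = 0.0232; −1.06, adjusted p = 0.0355 after median scaling), but the per-million call was lost without WT replicate 1 (limma adjusted p = 0.416), WT replicate 2 (0.245) or IRF8KO replicate 1 (0.141), and the median-scaled call without any 1 of the 4 libraries (adjusted p from 0.0889 to 0.187). Its IRF8KO peaks had −log10 q of 0.343 and 1.55. The window's sum was 32.3 and 24.5 in WT and 16.2 and 22.6 in IRF8KO, over 22, 22, 20 and 22 peaks covering 5046, 4810, 4611 and 5023 bp, a ratio of 0.685, or 0.856 after median scaling.

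**Figure D4:**
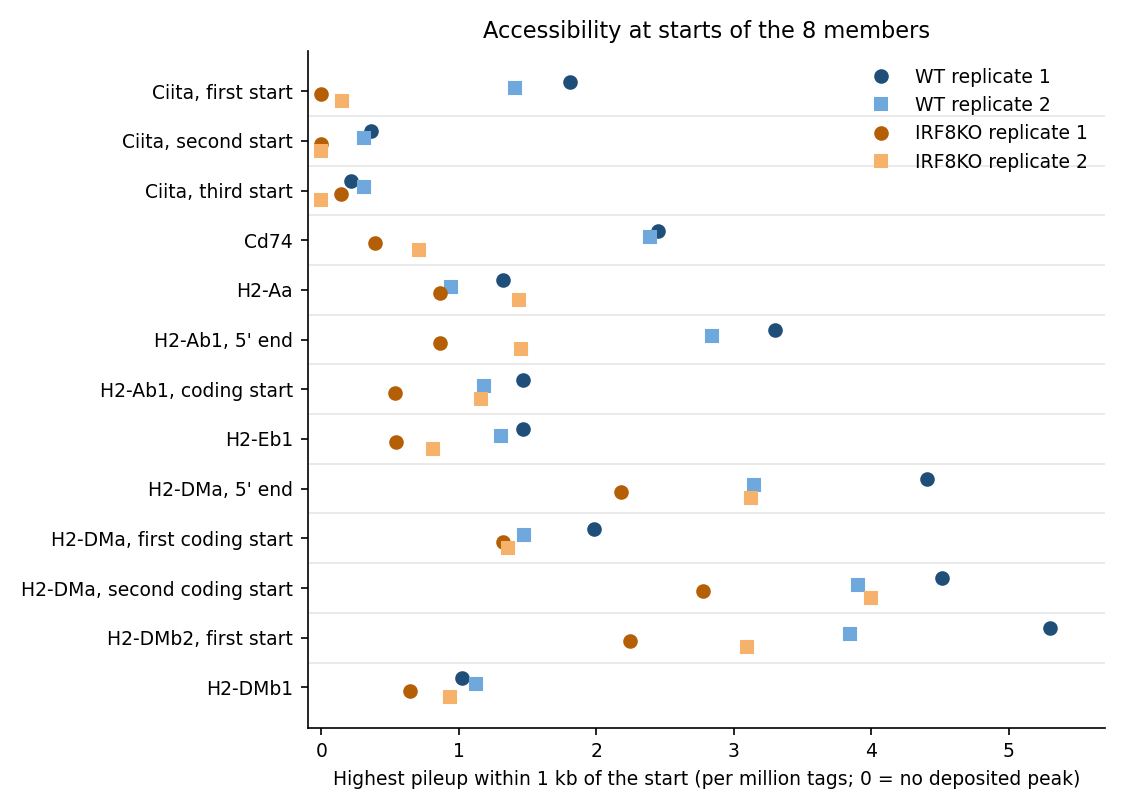
Highest per-million pileup within 1 kb of each start (horizontal axis), with 1 point per library and 0 where no peak was listed. The region between the downstream Ciita starts lies within 1 kb of both, and it gives the 0.307 of WT replicate 2 at each. Both WT libraries lie far above both IRF8KO libraries at the first Ciita start, Cd74 and the H2-Ab1 5′ end, while the points of the 2 genotypes mix at H2-Aa and at the second coding start of H2-DMa.

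Counted at the annotated 5′ ends, 7 of the 8 members had a promoter peak in all 4 libraries, Ciita being the exception. Both IRF8KO libraries lay below both WT libraries at 6 of the 7 and above at 0, where 40.7% and 3.79% of protein-coding promoters did so. After median scaling these counts were 5 and 1, against 24.1% and 22.3%. For the summed windows of the 8 genes, which partly overlap, they were 6 below and 0 above, against 42.2% and 7.15% of gene windows, and after median scaling 6 and 0, against 27.1% and 23.8%. The promoter counts include the H2-DMa end that lies inside Brd2 and the non-coding end of H2-Ab1. After median scaling the groups overlapped at both H2-DMa coding starts. At the H2-Ab1 coding start IRF8KO lay below WT in both scalings.

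Across the members, 40 of the 105 regions had a peak in all 4 libraries, 7 in 3, 15 in 2 and 43 in 1. The regions seen in a single library were low, with a median of 0.151. Limma called 3 of the 40 lower in IRF8KO: the Cd74 promoter, the H2-Ab1 5′ end and the H2-DMb1 intron. Over the genome 6.82% of such regions were called lower. It called 0 higher, against 2.8% over the genome, and at an unadjusted p under 0.05 limma had 5 lower and 0 higher, against 14.6% and 5.63% over the genome. These shares of the members called lower are near those of all regions. After median scaling it called 4 lower, with the H2-Eb1 promoter added, and 1 higher, against 11.7% and 13.5% over the genome. The count lower was 0 of 42 without WT replicate 1 (genome 0.239%), 0 of 41 without WT replicate 2 (genome 0.624%), 3 of 43 without IRF8KO replicate 1 (the first Ciita start, the Cd74 promoter and the H2-Ab1 5′ end; genome 7.18%) and 12 of 41 without IRF8KO replicate 2 (genome 21.4%). After median scaling it was 2, 2, 5 and 5 in the same order, against 7.68%, 8.33%, 11.5% and 11.6% over the genome. In those fits 1 genotype has a single library, which is assumed to vary like the others.

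Both IRF8KO libraries lay below both WT libraries in 21 of the 40 regions (52.5%), against 37.2% over the genome, and above in 0, against 11.8%. After median scaling these became 17 below (42.5%; genome 27.7%) and 6 above (genome 30.3%). The median log2 difference of the 40 was −0.47, beside −0.31 over all tested regions, and −0.15 beside 0.02 after median scaling. By locus, on the per-million scale, the H2-DM block had 12 of 16 below, Cd74 4 of 6, the H2-A and H2-E block 4 of 14 and Ciita 1 of 4. After median scaling the H2-DM block had 8 below and 1 above, and the other counts below were the same, with 1, 2 and 2 above. Presence in 1 genotype only was counted next. Of the 105 regions, 9 were in both WT and neither IRF8KO library (8.57%; genome 3.7%), and 3 were in both IRF8KO and neither WT library (2.86%; genome 3.65%). At a −log10 q of at least 2 these counts were 5 (genome 2.23%) and 2 (genome 1.55%), and at 5 they were 2 (genome 1.14%) and 2 (genome 0.777%). The 9 became 18 without WT replicate 1 and 22 without WT replicate 2, and the 3 became 5 without WT replicate 2, 14 without IRF8KO replicate 1 and 13 without IRF8KO replicate 2, since 1 library then decides presence. The share over all regions was not counted without 1 library, so these changes are not a result about the members.

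**Figure D5:**
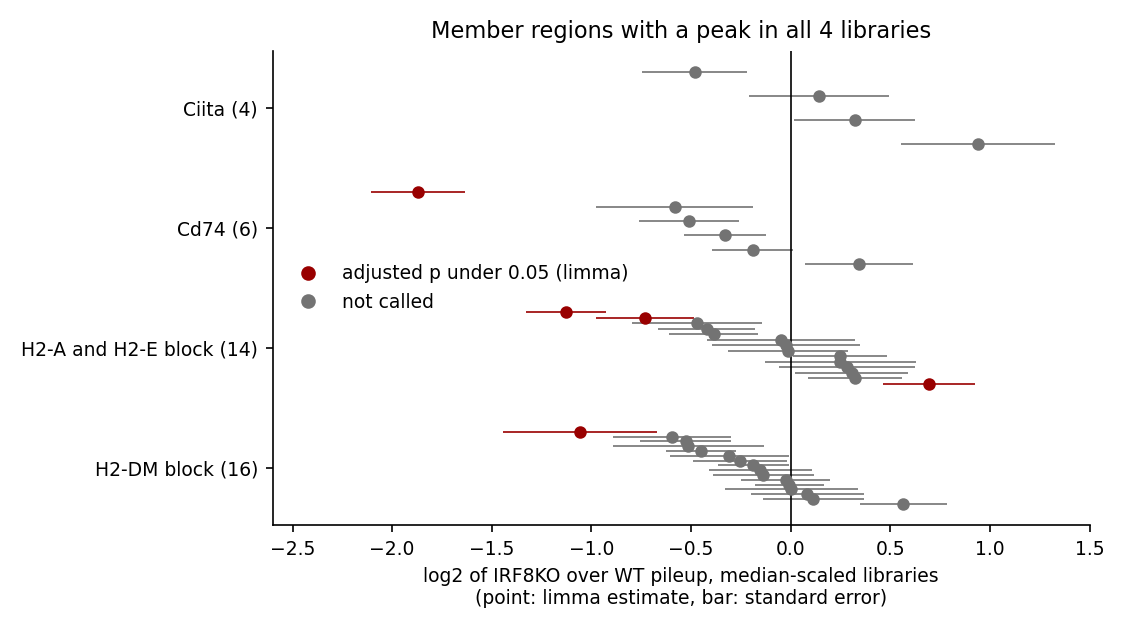
limma log2 ratio of IRF8KO over WT after median scaling (horizontal axis, bars are standard errors) for the 40 member regions with a peak in all 4 libraries, by locus. The Cd74 promoter lies farthest to the left at −1.87, 4 regions are called lower and 1, upstream of H2-Aa, is called higher.

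Motifs were counted in the members' regions. ETS-IRF letters lay within 100 bp of the summit in 7 of the 105 (6.67%, against 2.8% of all regions). Of these 7, 4 were WT-only regions, 2 (the Cd74 promoter and the H2-DMb2 start) had both IRF8KO libraries below both WT libraries, and 1 was a low peak of IRF8KO replicate 1. Among the 9 WT-only member regions the share was 44.4%, beside 14.7% of WT-only and 1.69% of IRF8KO-only regions over the genome. X box letters lay in 4 of the 40 regions open in all 4 libraries (10%, against 0.79% of such regions). These were the second coding start of H2-DMa, H2-DMb1, the coding start of H2-Ab1 and H2-Eb1. In each the X box was followed by ATTGG, the NF-Y letters of the Y box, after 23, 23, 22 and 22 bases. Their IRF8KO to WT ratios were 0.805, 0.737, 0.638 and 0.490, and 0.996, 0.899, 0.756 and 0.602 after median scaling.

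The arrangement can be read in the printed stretches. Before the H2-Eb1 start, AGCAACTGATG begins 92 bases upstream and ATTGG follows at 59; before the coding start of H2-Ab1, AGAGACAGATG begins 60 bases upstream and ATTGG follows at 27. H2-Aa had ATTGG at 48 bases and the CRE letters TGACGTCA at 74, with no match to the X box letters used here. An X box followed by ATTGG after 15 to 30 bases occurs in 7 of 32851 RefSeq promoter windows (0.0213%; 250 bases before to 50 after a start, on GRCm38), among them H2-Eb1, H2-DMb1 and H2-Eb2. RefSeq windows matched 5 of the 8 members by symbol. The pairing was chosen after the members' matches were seen, so its share over these windows is a description only. NF-Y letters lay in 30 of the 105 regions (28.6%) against 23.5% of all regions, and in 17 of the 40 open in all 4 libraries (42.5%) against 22.4% of such regions. A match to letters describes the sequence and shows no binding.

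Of 29 other genes of the pathway, 25 had a promoter region that could be tested, and limma called 1 lower and 0 higher (1 and 0 also at an unadjusted p under 0.05), against 6.82% and 2.8% called over the genome, and 14.6% and 5.63% at the unadjusted p. The one called was Cd40, a costimulatory receptor, whose region (chr2:165055060-165055401) had 0.532 and 0.429 in WT and 0.127 and 0.227 in IRF8KO (limma log2 −1.5, adjusted p = 0.0330; −1.17, adjusted p = 0.0104 after median scaling). A higher IRF8KO peak lies within 1 kb of the same start, and by the highest peak there IRF8KO had 0.254 and 0.272, a log2 ratio of −0.87, with the groups still apart in both scalings. After median scaling H2-Oa, a chain of the H2-DM inhibitor H2-O, was also called, and higher in IRF8KO (limma log2 1.1, adjusted p = 0.000771), which makes 1 lower and 1 higher of the 25, against 11.7% and 13.5% over the genome. Before that scaling its values of 0.745 and 0.573 in WT and 1.03 and 1.21 in IRF8KO lay apart without a call (adjusted p = 0.404). The median log2 difference of the 25 was −0.33, and −0.01 after median scaling. Of the factors that recruit CIITA, 6 of 7 had a promoter peak in all 4 libraries, and Nfyc had none in any. Promoters of the pathway genes were searched only within 1 kb of 1 annotated 5′ end, so a peak at another start of Nfyc would be missed. Rfx5 had 6.16 and 4.79 in WT and 4.28 and 5.53 in IRF8KO, and the groups also overlapped at Rfxank, Nfya and Creb1, although Rfxank lay above WT in both IRF8KO libraries after median scaling. Rfxap (4.07 and 3.76 in WT, 2.41 and 3.52 in IRF8KO) and Nfyb (4.49 and 4.11 in WT, 2.65 and 3.28 in IRF8KO) lay lower in both IRF8KO libraries on the per-million scale and overlapped after median scaling, and limma called neither. The Irf8 promoter itself stayed open, at 2.07 and 1.49 in WT and 0.863 and 1.36 in IRF8KO, and since the allele is not named this does not check the genotype labels.

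Among 17222 protein-coding genes with peaks in all 4 libraries, those whose summed window pileup was most like Ciita's over the 4 libraries (smallest Euclidean distance of centred log2 values) were Foxo1 (0.0295), Recql5 (0.0347) and Ttc30a1 (0.0406). For H2-Ab1 they were Ppfia3 (0.0149), Nodal (0.0150) and Rnf122 (0.0254). They were chosen for likeness over these same 4 libraries, so their likeness is a description only.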

How the data were processed

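ATAC-seq peak lists of 2 WT and 2 IRF8KO microglia libraries were used, with libraries grouped by the genotype in the labels. Per the submitters' processing notes the build was mm10 (GRCm38) and Bowtie2, MACS2 2.1.1.20160309 and deepTools were used. Each list came from its own MACS2 run, with no control library, cut sites shifted by 37 bp and extended to 73 bp, and peaks kept at p below 0.01, per the file headers. The deposited pileup is a signal that counts how many extended cut sites cover the summit. The deposited fold enrichment is a ratio to local background and was not used. The deposited −log10 q served as a stricter threshold, although the headers say that q was not calculated.

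Peaks of the 4 lists on the autosomes and X were merged where they shared 1 bp. A region's value was its highest pileup divided by the tags in the file header and multiplied by 1000000. Regions with a peak in all 4 libraries were tested with limma 3.58.1 (R 4.3.3, trend) on log2 values, with Benjamini-Hochberg adjustment over 58732 regions and a threshold of 0.05. A check on simulated data used noise of equal spread in every region and no shift between libraries. It therefore does not show how the test behaves on these libraries. Single values were compared by exact two-sided permutation. A second scaling set the 4 libraries' medians over these regions equal. Alternatives were stricter q, other scalings, a pseudocount of 0.1, filled missing values, other overlap and window rules, a replicate block and leaving out each library.

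The rule for single description took regions within 1 kb of a member's start, those called by limma, those present in 1 genotype only and the highest per window. Weaker regions near a start that also had a higher one were left out. The Ciita region 6.43 kb after a coding start was described outside the rule. Motif letters were searched on both strands within 100 bp of each summit, and genes were taken from GENCODE M21. The members and lists were chosen with earlier results of these data known.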

Additional observations from a re-analysis of the deposited data

How the results depend on the processing

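For the 8 members' promoters and the 4 window sums, 79 of 81 alternatives kept the direction, and the 2 that did not were at the H2-Aa promoter: −0.172 without WT replicate 2 and −0.268 without IRF8KO replicate 2 (range −0.268 to 0.304 without 1 library, 0.0181 as reported). Regions called lower (3 as reported) were 5 of 40 with quantile normalization (genome 12%) and 27 of 105 with missing values set to the 5th percentile (genome 28.2%). That setting fills IRF8KO libraries with lower levels by construction. Leaving out 1 library gave 0 to 12, and 2 to 5 with median scaling. Regions called higher (0 as reported) were 1 with median scaling (genome 13.5%) or quantile normalization (genome 12.3%), and 2 with missing values filled (genome 1.98%). The replicate numbers did not pair the libraries (r = 0.00245 between the genotypes' replicate differences over 58732 regions). With a replicate block limma called 0 of 40 regions lower (genome 1.48%) and 3 at an unadjusted p under 0.05 (genome 7.68%), and with median scaling and a replicate block 3 lower and 2 higher (genome 11.9% and 13.5%). WT-only regions (9) were 5 at −log10 q of 2 and 2 at −log10 q of 5, and 10 to 22 without 1 library. IRF8KO-only regions (3) were 4 to 14 without 1 library. The share over all regions was not counted for presence without 1 library. Over these limma alternatives the adjusted p ran from 5.18e-14 to 0.361 at the Cd74 promoter (called in 13 of 16), 2.57e-07 to 0.88 at the H2-Ab1 5′ end (13 of 16), 0.00561 to 0.416 at the H2-DMb1 intron (6 of 15), 0.00834 to 1 at the H2-Eb1 promoter (6 of 16) and 0.0176 to 1 at the region 8.39 kb before H2-Aa, which was higher in IRF8KO where called (5 of 16). The median-scaled fits that also leave out a library or add the block were chosen after seeing the data. So were the alternatives at coding starts of Ciita, H2-Ab1 and H2-DMa, which are among the 81. A level below the lowest listed peak cannot be read from peak lists.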
